A study of Mus musculus with 33 samples.

Results

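Trav17 is a Vα gene segment of the mouse Tcra-Tcrd locus, and it is described here by the 30 kb window chr14:53790001-53820000 (mm10) that holds the gene at chr14:53806639-53807115 and the CTCF site upstream of it. Its reads were all those with at least 1 of 2 captured fragments in this window. Over the 25 libraries with a bait elsewhere in the locus, 40732 of 1234296 reads of the locus region chr14:53740001-54300000 met this rule. In the 8 libraries made with a bait at Trav17 itself, 54149 of 146219 region reads did so, and these were kept apart because every such read starts in the window.

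Contacts were measured by 3C-HTGTS, in which crosslinked chromatin is cut with MboI, ligated and amplified from a bait primer, and reads that hold the bait plus 2 further fragments give three-way contacts. All mice were C57BL/6 and Rag1-/-, so no cell could recombine the locus. DP (CD4+ CD8+) thymocytes of CBE+/+Rag1-/- mice (EACBE+/+) and CBE-/-Rag1-/- mice (EACBE-/-) were taken 10 days after an anti-CD3 injection given at 3 weeks of age, since Rag1-/- thymocytes reach the DP stage only when the signal is supplied from outside, and liver cells were from CBE+/+Rag1-/- mice. EACBE is the CTCF-binding site next to the enhancer Eα, and it is lost in all cells of the EACBE-/- mice. The baits were Eα, the TEA promoter (TEAp) and Trav17 in all of these groups, INT2 in EACBE+/+ DP thymocytes and liver, and Dδ2 in EACBE+/+ DP thymocytes, with 3 libraries for each bait in DP thymocytes and 2 in liver. The study states that this Eα bait lies outside the restriction fragment that contains Eα, and it placed a second primer in that fragment. The bait fragment chr14:54225987-54227254 adjoins that of the second primer, chr14:54227255-54227584. A single library with the second Eα primer had no replicate, and values given for Eα are from the first bait.

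V(D)J recombination assembles the Tcra gene of a DP thymocyte from a Vα and a Jα segment that lie far apart on the chromosome. Eα activates the TEA promoter at the 5′ end of the Jα array, and CTCF with cohesin forms loops whose anchors are CTCF motifs facing each other, which can carry Vα segments towards the Jα array. Trav17 is among the more 3′ (proximal) Vα segments, and INT1 and INT2 are CTCF-bound intergenic elements that lie between the V segments and the Tcrd gene segments.

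Region reads per library numbered between 9280 and 256778 in DP thymocytes for these baits. Liver was far shallower, with 728 and 406 region reads for Eα, 3333 and 818 for TEAp, and 29910 and 12745 for INT2. Most DP libraries hold each distinct fragment pair of the window several times (1.57 to 5.92 reads per distinct pair), so intervals and floors cover counting error only. Expression was not measured, and the labels of the cells were therefore not checked against marker genes. In the EACBE-/- libraries the 5 kb bin chr14:54225001-54230000, where the Eα primers lie, fell by 0.96 ± 0.23 (SE) on the log2 scale from the Eα bait and by 1.04 ± 0.10 from TEAp (edgeR quasi-likelihood test, Benjamini-Hochberg adjusted p = 0.00642 and 8.63e-08). The exact ends of the deletion are not given in the sources used here.

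The window holds 76 MboI fragments, and B230359F08Rik (chr14:53795357-53795963, + strand), annotated as a V gene, is the other gene in it. Trav17 has its exons at chr14:53806639-53806684 and chr14:53806821-53807115 on the + strand. The study describes a downstream-oriented CTCF site nearest to the gene and an upstream-oriented one that its Trav17 bait covers. A search of both strands for the 11 letters of a CTCF core motif, with any base allowed at the 4th and the 7th, found 3 matches in the window, all upstream of the gene, and 9 in the whole region. Of all 30 kb windows of chromosome 14, 22.3% held at least 1 match and 0.198% held 3 or more. These letters, which all 3 matches share outside the 4th and the 7th, were chosen after the locus sequence had been looked at, and CTCF binding was not measured. The matches are shown with 50 bases on either side, read along the strand of the match, with the matched bases in capitals. The match 4046 bp before the gene is not among the sites that the study describes there.

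Match 4046 bp before Trav17 (chr14:53802543-53802653, - strand): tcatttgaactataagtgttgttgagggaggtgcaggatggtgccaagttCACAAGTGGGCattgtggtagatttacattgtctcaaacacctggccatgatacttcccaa
Match 2212 bp before Trav17 (chr14:53804377-53804487, - strand): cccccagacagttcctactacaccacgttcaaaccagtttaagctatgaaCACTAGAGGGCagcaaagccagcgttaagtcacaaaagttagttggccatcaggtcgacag
Match 236 bp before Trav17 (chr14:53806353-53806463, + strand): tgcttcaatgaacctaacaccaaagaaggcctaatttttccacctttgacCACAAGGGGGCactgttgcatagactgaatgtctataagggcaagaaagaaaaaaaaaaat

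The match 2212 bp before the gene lies in the MboI fragment chr14:53804241-53805068, which is the fragment of the Trav17 bait, and it faces upstream. The match 236 bp before the gene shares the fragment chr14:53806316-53807203 with Trav17 and faces downstream, towards the Jα array. The end of Trav17 is shown for the recombination signal that marks it as a V segment. Capitals mark a heptamer found at the end of the gene and the 9 bases that follow a spacer set to 23 bases. Those 9 bases stand at the place of the nonamer and were not matched to a nonamer sequence.

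End of Trav17 (chr14:53807096-53807175, + strand): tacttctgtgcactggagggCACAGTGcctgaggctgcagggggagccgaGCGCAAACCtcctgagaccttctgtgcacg

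In EACBE+/+ DP thymocytes the window took 4.78%, 5.02% and 4.68% of the region reads from the Eα bait, 419 kb away. From TEAp, 346 kb away, it took 4.25%, 4.42% and 4.50%. From Dδ2, the bait at the Trdd2 segment, it took 4.16%, 4.19% and 4.52%, and from INT2 2.74%, 2.37% and 2.51%. These shares cannot be ranked between baits, because each bait draws a different part of its reads to its own surroundings. The window was therefore also set against the mean of the 30 kb windows on either side. This ratio was 1.47 ± 0.08 (SD, n = 3) for Dδ2, 1.23 ± 0.16 for Eα, 1.08 ± 0.05 for TEAp and 1.06 ± 0.01 for INT2. Of the 6 pairs of baits, the ratios did not overlap for Dδ2 against TEAp, Dδ2 against INT2 and Eα against INT2 (exact permutation test, two-sided, p = 0.1, the smallest that 3 against 3 libraries allow, adjusted p = 0.2), and those of the other pairs overlapped. The flanks are not alike in what can be cut, with 55 MboI fragments in the upstream one and 92 in the downstream one.

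In liver the window was rarely captured. From Eα it held 5 of 728 reads (0.687%, 95% Wilson interval 0.294 to 1.60%) and 0 of 406, which allows a share of up to 0.739%. From TEAp it held 25 of 3333 and 3 of 818 reads (0.750% and 0.367%), and from INT2 170 of 29910 and 80 of 12745 (0.568% and 0.628%). Every EACBE+/+ DP library lay above every liver library for each of the 3 baits, with mean shares 14.1 times the liver mean for Eα, 7.86 times for TEAp and 4.25 times for INT2 (exact permutation test, two-sided, p = 0.1, the smallest possible with 3 against 2, adjusted p = 0.1). The ratio to the flanks did not overlap either, at 0.50 ± 0.71 (n = 2) in liver for Eα, 0.58 ± 0.32 for TEAp and 0.93 ± 0.01 for INT2 (exact permutation test, p = 0.1, adjusted p = 0.167). The Eα and TEAp values of this ratio in liver rest on 25 or fewer window reads per library, and for INT2 its direction turned with flanks of 15 kb (a difference of -0.04 in place of 0.13). With reads that held only fragments upstream of the INTs as the total, a choice made after seeing the data, the INT2 share was lower in DP thymocytes than in liver by 5.42 percentage points (exact permutation test, p = 0.7).

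**Figure D1:**
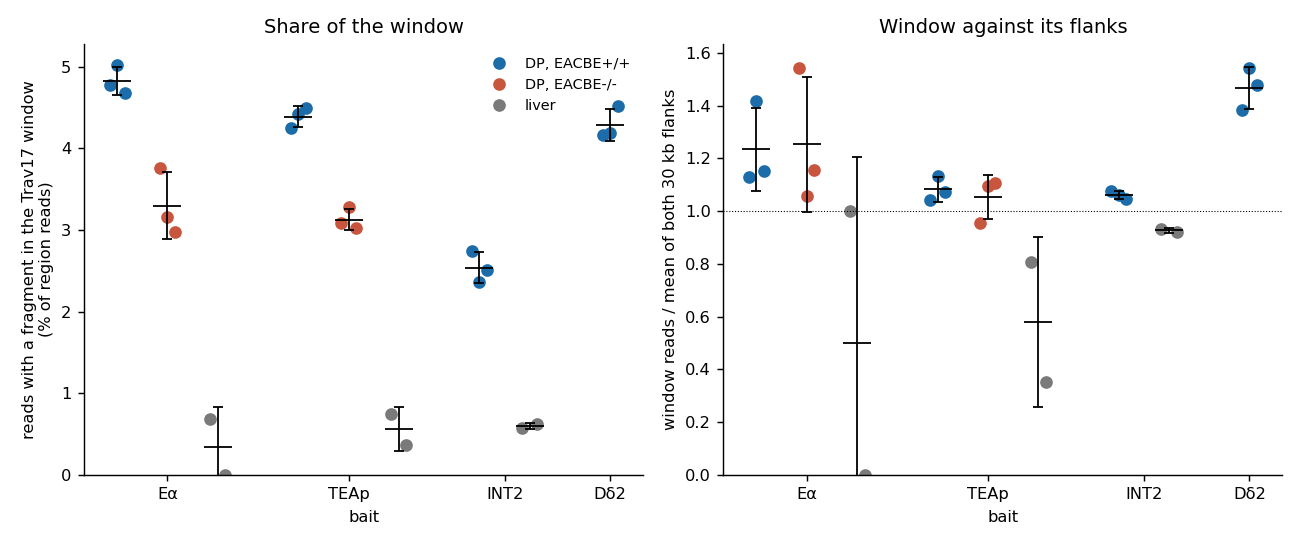
Reads with a fragment in the Trav17 window as a percentage of region reads (left) and window reads divided by the mean of both 30 kb flanks (right), by bait; points are libraries, lines are means and bars are ± 1 SD (3 DP and 2 liver libraries per bait). The share is 4.68% or more in every EACBE+/+ library of the Eα bait and at most 3.76% in EACBE-/-, while the ratios to the flanks of these groups overlap.

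In EACBE-/- DP thymocytes the window's share was lower than in EACBE+/+ from both baits. From Eα it held 3.76%, 3.15% and 2.97% of region reads, a mean of 3.30 ± 0.41% (SD, n = 3) against 4.83 ± 0.17%. From TEAp it held 3.08%, 3.28% and 3.02%, a mean of 3.13 ± 0.13% against 4.39 ± 0.13%. The genotypes did not overlap for either bait, with differences of -1.53 and -1.26 percentage points (exact permutation test, two-sided, p = 0.1, the smallest possible, adjusted p = 0.1). Set against its flanks the window did not stand apart between the genotypes at this number of libraries. The ratio to the flanks was 1.25 ± 0.26 in EACBE-/- from Eα (exact permutation test, p = 0.8) and 1.05 ± 0.08 from TEAp (p = 0.7), and in both cases the genotypes overlapped.

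Within the window, contacts were uneven. In EACBE+/+ DP thymocytes the bins chr14:53800001-53805000, whose fragments hold the upstream-facing match farther from the gene, and chr14:53790001-53795000 were the most captured of the 6 for Eα (1.32 ± 0.19% and 1.27 ± 0.06% of region reads), TEAp (1.20 ± 0.17% and 1.07 ± 0.11%) and Dδ2 (1.33 ± 0.05% and 1.24 ± 0.20%). The bin of Trav17 itself, chr14:53805001-53810000, held 0.81 ± 0.09%, 0.79 ± 0.07% and 0.62 ± 0.07% for these baits and 0.47 ± 0.02% for INT2. Because a fragment was counted in the bin of its end, the bait fragment with its motif match and the fragment of the gene both fall in this bin. Of the fragments counted in chr14:53800001-53805000, the most captured for Eα and TEAp was chr14:53801446-53801522, which holds no motif match. The highest of the 18 bins in the window and its flanks was the one of Trav18, the next Vα gene 24.5 kb downstream, for all 4 baits (2.20 ± 0.10% for Eα, 2.43 ± 0.04% for TEAp, 1.68 ± 0.10% for Dδ2 and 0.92 ± 0.13% for INT2).

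**Figure D2:**
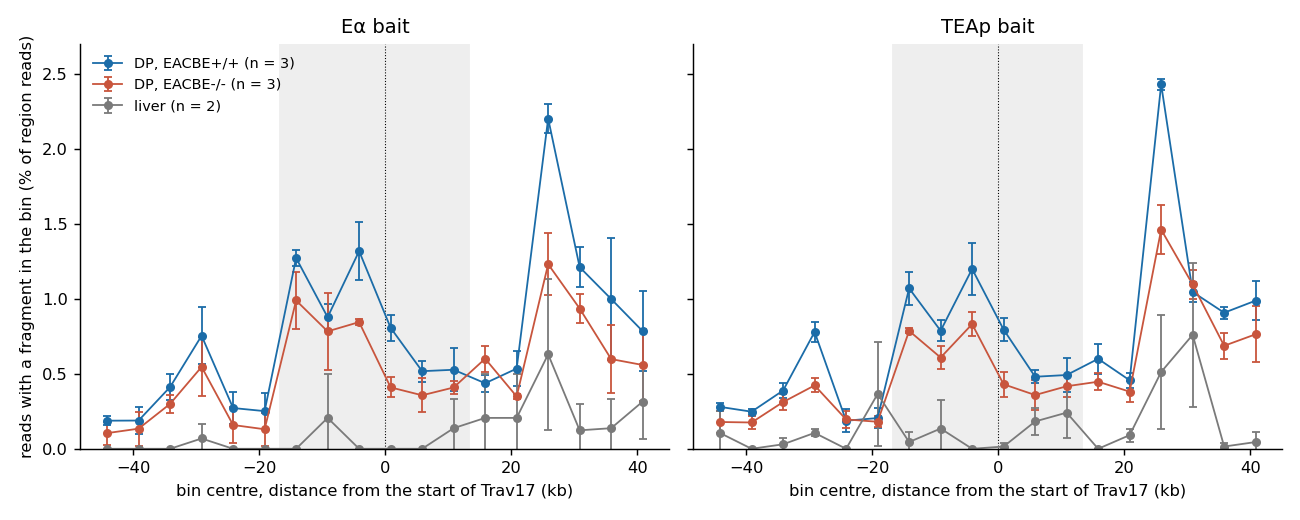
Reads with a fragment in each 5 kb bin (% of region reads, mean ± 1 SD) against the distance of the bin centre from the start of Trav17 (kb), for the Eα and TEAp baits; the shaded band is the Trav17 window, the dotted line is the start of Trav17 and error bars that reach below 0 are cut at 0. The Trav18 bin is the peak in both DP groups, and the Trav17 bin lies at 0.81% in EACBE+/+ and 0.41% in EACBE-/- for Eα.

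At single fragments the captures did not centre on the gene. The adjoining fragments chr14:53794829-53794958 and chr14:53794712-53794828, 11.8 and 11.9 kb before Trav17, and chr14:53801446-53801522, 5.19 kb before it, were the 3 most captured of the 76 for Eα and for TEAp. The first of these gave 33.0 ± 11.8 captures per 10000 region reads for Eα, 32.1 ± 1.4 for TEAp and 32.3 ± 9.6 for Dδ2. The fragment that holds Trav17 and the downstream-facing motif gave 6.44 ± 5.65 for Eα (rank 40 of 76), 12.5 ± 7.2 for TEAp (rank 8) and 9.16 ± 6.45 for Dδ2 (rank 21). The bait fragment with the upstream-facing motif gave 14.5 ± 5.8 for Eα (rank 6), 7.37 ± 1.64 for TEAp (rank 28) and 13.4 ± 3.4 for Dδ2 (rank 9). The spread between libraries is wide at this scale. The fragments also differ in length, and the ranks are not corrected for it. Those 3 are 130, 117 and 77 bp long, against 888 bp for the fragment of Trav17 and 828 bp for the bait fragment. A fragment of 26 bp next to the bait fragment ranked 61 for Eα and 47 for TEAp. Whether length affects capture was not tested. The 3 most captured fragments are printed with the MboI site in capitals.

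Fragment 11.8 kb before Trav17 (chr14:53794829-53794958, + strand): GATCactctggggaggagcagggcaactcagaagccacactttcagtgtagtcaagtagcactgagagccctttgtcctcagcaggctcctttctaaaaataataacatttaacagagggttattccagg
Fragment 11.9 kb before Trav17 (chr14:53794712-53794828, + strand): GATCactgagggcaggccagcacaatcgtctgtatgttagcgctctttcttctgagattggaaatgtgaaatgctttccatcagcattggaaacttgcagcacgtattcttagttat
Fragment 5.19 kb before Trav17 (chr14:53801446-53801522, + strand): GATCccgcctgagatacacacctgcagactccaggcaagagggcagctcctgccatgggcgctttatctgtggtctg

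The bin of Trav17 fell the most of the 6 window bins in EACBE-/- against EACBE+/+ DP thymocytes, by 0.92 ± 0.28 (SE) on the log2 scale from Eα and by 0.87 ± 0.18 from TEAp. From Eα it held 0.716%, 0.888% and 0.817% of region reads in EACBE+/+ and 0.485%, 0.385% and 0.359% in EACBE-/-. From TEAp it held 0.709%, 0.829% and 0.847% against 0.507%, 0.441% and 0.343%. No EACBE-/- library reached the lowest EACBE+/+ library for either bait. The edgeR quasi-likelihood test gave Benjamini-Hochberg adjusted p = 0.0283 for Eα and 0.000592 for TEAp.

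For Eα this was the only 1 of the 6 window bins called, where 24.8% of all 109 bins were called and 14.7% were called lower in EACBE-/-. The call passed in 4 of 13 alternatives (edgeR or DESeq2, adjusted p between 0.000308 and 0.161), with the bin lower in all of them at -1.11 to -0.64 on the log2 scale. It was lost when EACBE-/- library 2 or 3 or EACBE+/+ library 2 or 3 of this bait was left out, which gave 0 calls each, while leaving out EACBE-/- library 1 gave 3. The median log2 change over the window bins was -0.40, beside -0.37 over all bins tested. For TEAp, 3 of 6 bins were called lower, where 39.1% of 110 bins were called and 21.8% were lower. The other 2 were chr14:53790001-53795000 (-0.44 ± 0.13, edgeR quasi-likelihood, Benjamini-Hochberg adjusted p = 0.0114) and chr14:53800001-53805000 (-0.53 ± 0.14, adjusted p = 0.00555). The Trav17 bin was called in all 13 alternatives for TEAp, and the median over the window was -0.42 beside -0.10 over all bins. The call at chr14:53790001-53795000 was lost without EACBE+/+ library 3 of this bait (edgeR quasi-likelihood, Benjamini-Hochberg adjusted p = 0.0723).

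The proximal V bins between the window and the INTs moved the same way, with 8 of 46 called lower and none higher for Eα (median -0.61) and 15 of 46 called lower and none higher for TEAp (median -0.31). Of the bins downstream of the locus, 6 of 12 were called higher for Eα and 10 of 13 for TEAp, with medians of 0.92 and 1.36 and all of them above 0. All bins of a library are shares of 1 total. With downstream reads left out of the total and of the bins tested, an alternative added after seeing the data, the Trav17 bin was at -0.77 for Eα (edgeR quasi-likelihood, Benjamini-Hochberg adjusted p = 0.0693) and at -0.74 for TEAp (adjusted p = 0.00159). No window bin was then called for Eα by edgeR (1 at an unadjusted p under 0.05), and 3 were for TEAp.

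**Figure D3:**
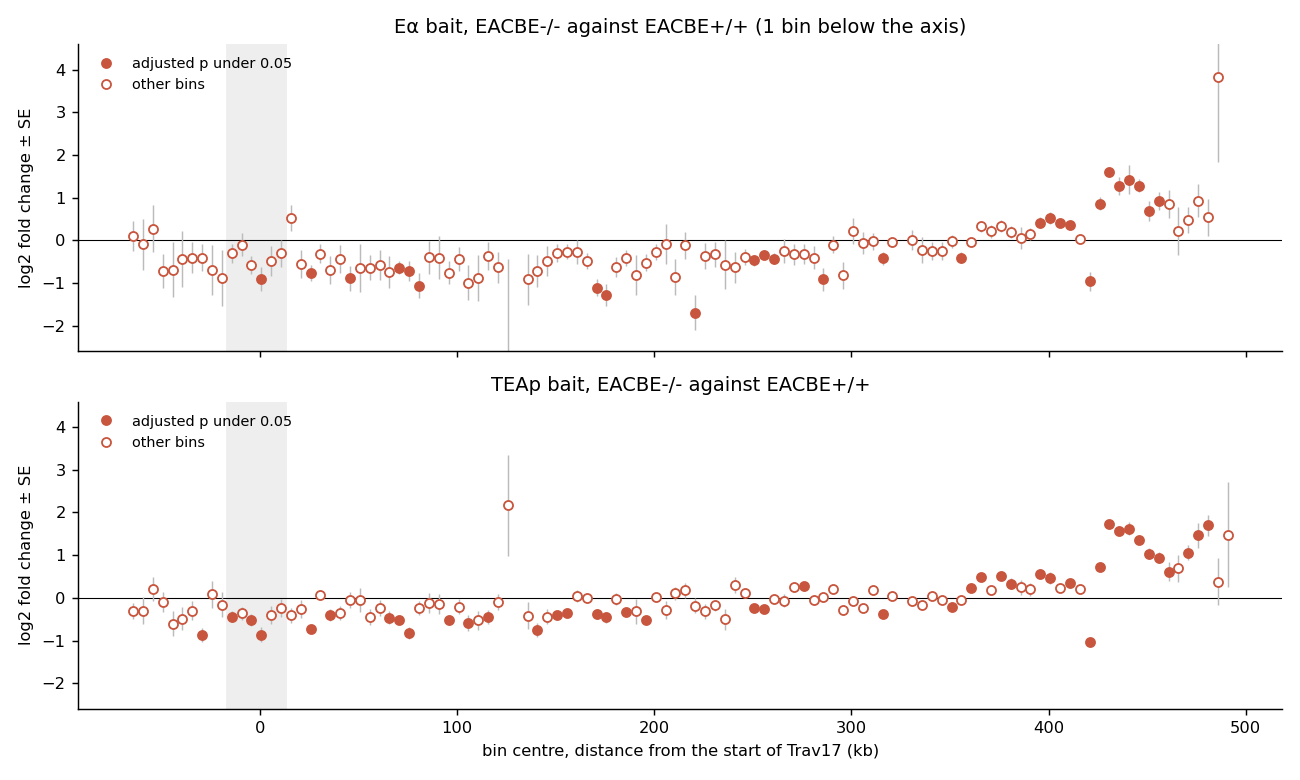
Log2 fold change ± SE of each 5 kb bin in EACBE-/- against EACBE+/+ DP thymocytes, plotted by the distance of the bin centre from the start of Trav17 (kb), for Eα (top) and TEAp (bottom); filled points have an edgeR adjusted p under 0.05 and the shaded band is the Trav17 window. The Trav17 bin lies at -0.92 and -0.87, the bins downstream of Eα lie above 0, and 1 uncalled bin of the Eα panel lies below the axis.

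Of the 6 window bins, 4 were called higher in DP thymocytes than in liver for Eα, where 49.1% of all 108 bins were called and 33.3% were higher. For TEAp 4 were, where 41.3% of 109 bins were called and 29.4% were higher, and for INT2 all 6 were, where 65.1% were called and 51.4% were higher. From INT2, the Trav17 bin held 0.474%, 0.486% and 0.455% of region reads in DP thymocytes and 0.0568% and 0.0392% in liver, a log2 difference of 3.12 ± 0.47 (edgeR quasi-likelihood, Benjamini-Hochberg adjusted p = 2.07e-09). That was the greatest difference of the window's bins from this bait. From Eα no liver library held a read in the Trav17 bin, so that DP thymocytes were at least 3.05-fold higher against a floor of 3 counts over the group (edgeR quasi-likelihood, Benjamini-Hochberg adjusted p = 0.00685). That call was lost without liver library 1 of this bait (adjusted p = 0.0838 by the same edgeR test), and it was also lost with pairs inside a single bin left out (adjusted p = 0.0624). Each of these left 2 calls for Eα. From TEAp the bin had 1 liver read of 4151 against 1554 of 195451 in DP thymocytes, a ratio of 33.0 with an exact 95% counting interval of 5.91 to 1304 (edgeR quasi-likelihood, Benjamini-Hochberg adjusted p = 0.000717). Without DP library 3 of TEAp 3 window bins were called, and without liver library 1 of INT2 4 were. With a replicate block 0 window bins were called for Eα, 0 for TEAp and 4 for INT2. The Trav17 bin passed in 7 of 10 alternatives for Eα, 9 of 10 for TEAp and 10 of 10 for INT2.

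What the third fragment was, when the bait met the Trav17 window, differed with the bait. For Eα in EACBE+/+ DP thymocytes the other fragment lay in the proximal V stretch chr14:53820001-54055000 in 24.9 ± 5.1% of window reads and in the window itself in 20.6 ± 4.7%. It lay in the Jα stretch from Traj52 to Traj5 (chr14:54165001-54215000) in 14.7 ± 4.8%, and in the bins of Trac and Eα (chr14:54215001-54235000) in 10.9 ± 0.5%. For TEAp the INTs (chr14:54055001-54070000) made up 14.6 ± 0.9% and the Tcrd D, J and C stretch (chr14:54070001-54150000) 17.2 ± 2.8%, with Trac and Eα at 4.55 ± 0.79%. For Dδ2, which lies in the Tcrd stretch, that stretch made up 31.2 ± 3.1%. For INT2 the INTs, where the bait lies, took 77.6 ± 0.8%. The stretch chr14:54150001-54165000, with Traj61 to Traj53, was a small part for each of these baits. It made up 2.43 ± 0.12% for Eα, 4.14 ± 0.85% for TEAp, 3.11 ± 1.26% for Dδ2 and 0.92 ± 0.30% for INT2. This stretch, called the first Jα bins below, also holds the TEAp bait fragment (chr14:54152642-54153133), in a bin before Traj61.

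The leading single partner bins differed between the baits in the same way. For Eα the bin of Trac, the constant region gene, came first (6.20 ± 2.02% of window reads), then Traj52 to Traj48 (3.97 ± 0.88%), the shared bin of Trav3-4 and Trav12-4 (3.36 ± 2.01%), chr14:54060001-54065000 (3.29 ± 0.82%) and chr14:54125001-54130000 (2.48 ± 1.55%). The Trac bin adjoins the bin of the Eα bait. With partners inside the window left aside, the stretch of Trac and Eα had a share of 13.8 ± 1.1% beside a window fragment. Its share in reads without a window fragment was 13.4 ± 0.8%, and the difference was not tested. For TEAp, chr14:54060001-54065000 (6.35 ± 0.79%) and chr14:54055001-54060000 (5.80 ± 0.98%), both among the INTs and without an annotated gene, came first, then chr14:54125001-54130000 (3.70 ± 0.72%), Traj61 to Traj56 (3.18 ± 1.00%) and Trav18 (2.98 ± 1.00%). For Dδ2, chr14:54120001-54125000, with the bait, held 9.90 ± 0.89%, chr14:54125001-54130000 7.14 ± 0.90% and chr14:54060001-54065000 4.85 ± 1.99%. These lie at and beside the bait and among the INTs. Then came Trav3-4 with Trav12-4 (4.56 ± 3.09%) and chr14:54065001-54070000 (3.86 ± 2.06%). For INT2 the bait's own bin held 72.4 ± 1.2%, and the next was chr14:54060001-54065000 at 4.66 ± 0.76%. Below these came chr14:54125001-54130000 (1.40 ± 1.19%), chr14:54120001-54125000 (0.93 ± 0.90%) and Trav3-4 with Trav12-4 (0.86 ± 0.11%).

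Among the V genes of the region, Trav3-4 and Trav12-4, which share a bin about 29 kb upstream of Trav17, and Trav18 were among the 4 leading partners for every bait in EACBE+/+ DP thymocytes. Trav21-dv12 joined them for TEAp (2.69 ± 0.70% of window reads) and Dδ2 (1.35 ± 0.42%), Trdv2-2 for Eα (2.11 ± 1.09%) and Trdv1 for INT2 (0.49 ± 0.54%). The spread between libraries is as wide as the gaps between these genes for Eα, where Trav3-4 with Trav12-4 ranged from 1.05% to 4.59%. Reads with a window fragment and a second fragment elsewhere on chromosome 14, outside the region, were 12.8% to 25.3% of the window's reads on that chromosome in the DP libraries of Eα, TEAp and Dδ2.

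**Figure D4:**
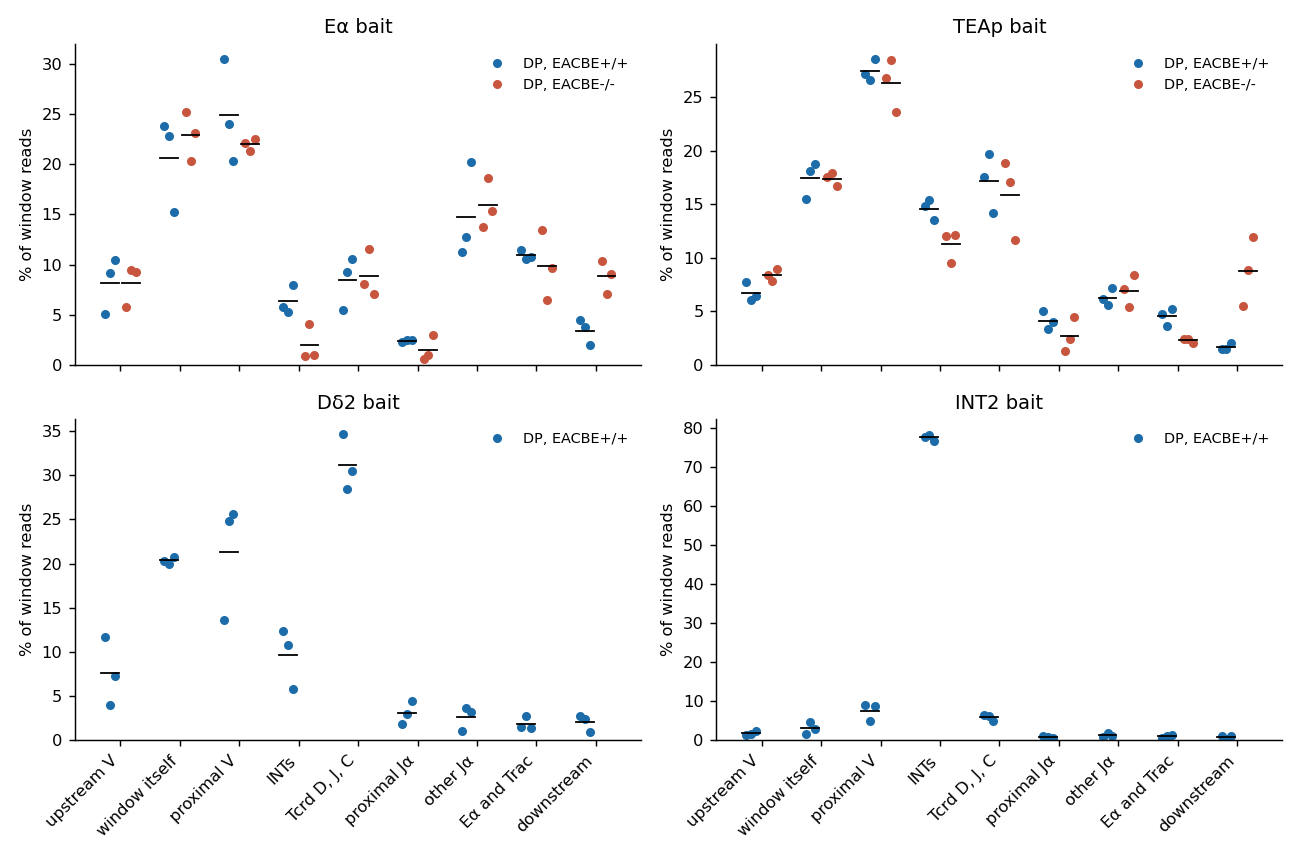
Where the other fragment of reads with a fragment in the Trav17 window lay (% of window reads), by stretch of the locus and bait; points are libraries and lines are means (3 libraries per group). The INTs were at 5.27% to 7.92% in EACBE+/+ and 0.86% to 4.07% in EACBE-/- for Eα.

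In EACBE-/- cells the INTs held a smaller share of the window's partners, and of the other reads. For Eα they held 5.79%, 5.27% and 7.92% of window reads in EACBE+/+ and 0.86%, 4.07% and 1.01% in EACBE-/-, and for TEAp 14.9%, 15.4% and 13.6% against 12.1%, 9.56% and 12.2%. The genotypes did not overlap for either bait (exact permutation test, two-sided, p = 0.1, the smallest possible, adjusted p = 0.267 over 8 partner comparisons). The Eα values of EACBE-/- rest on 3, 12 and 5 reads, and when repeats of a fragment pair were counted 1 time the genotypes overlapped for Eα (exact permutation test, p = 0.2) and not for TEAp (p = 0.1). The INTs were lower in reads without a window fragment too, at 6.20% to 6.99% against 8.44% to 9.12% for Eα and 15.2% to 16.6% against 17.8% to 19.3% for TEAp. Over all region reads, 3 of 3 INT bins were called lower in EACBE-/- for Eα and 2 of 3 for TEAp. Whether the window differed from other reads in this was not tested. The proximal V stretch and the first Jα bins overlapped between the genotypes for both baits, with proximal V at 22.0 ± 0.6% against 24.9 ± 5.1% for Eα and 26.3 ± 2.4% against 27.4 ± 1.1% for TEAp. The partners at Trac and Eα did not overlap for TEAp, at 2.41%, 2.45% and 2.06% in EACBE-/- against 4.74%, 3.68% and 5.22% (exact permutation test, p = 0.1, adjusted p = 0.267). That stretch includes the bin of the Eα primers, chr14:54225001-54230000, and without this bin, an alternative added after seeing the data, the difference shrank from -2.24 to -1.21 percentage points and the genotypes overlapped (exact permutation test, p = 0.2). They also overlapped with each distinct pair counted once (exact permutation test, p = 0.2). Reads that joined the window to chr14:54235001-54300000, downstream of Eα, made up 10.3%, 7.12% and 9.05% in EACBE-/- against 4.49%, 3.75% and 1.95% for Eα, and 5.50%, 8.91% and 12% against 1.45%, 1.47% and 2.03% for TEAp. They were higher in every EACBE-/- library, and this class was not tested.

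Pairs of 5 kb bins were sparse. For Eα, 0 of 155 tested pairs with a window bin were called between the genotypes by edgeR, where 0.595% of 1849 pairs were called and 0.0541% were lower in EACBE-/- (10 of the 155 had an unadjusted p under 0.05, and DESeq2 called 0). For TEAp, 2 of 328 were called, where 1.14% of 3521 were and 0.17% were lower, and both were higher in EACBE-/-. They joined chr14:53790001-53795000 and chr14:53800001-53805000 to chr14:54235001-54240000, which holds the 3′ end of Dad1, the housekeeping gene next to the locus. The first pair had 7, 13 and 28 reads in EACBE-/- and 0, 0 and 1 in EACBE+/+ (edgeR quasi-likelihood, Benjamini-Hochberg adjusted p = 0.00944). The second had 20, 33 and 30 reads against 4, 3 and 8, a log2 difference of 3.06 ± 0.87 (edgeR quasi-likelihood, Benjamini-Hochberg adjusted p = 0.0409). Neither passed without EACBE-/- library 3 of this bait, where 0 pairs were called, and the second was also lost without EACBE-/- library 2 or EACBE+/+ library 2 or 3, where 1 pair was called each time. With each distinct pair counted once both stayed higher, at log2 differences of 3.53 and 1.82, but neither was called (edgeR quasi-likelihood, Benjamini-Hochberg adjusted p = 0.0965 and 0.0988). The 1 window pair called then, and both called with 10 kb bins, were lower in EACBE-/-. Over all window pairs tested the median log2 difference was -0.74, beside -0.16 over all pairs, and it was the same with pairs at 0 in 1 genotype set to their bound. Among the pairs that were lower in EACBE-/-, that of chr14:53800001-53805000 with chr14:54155001-54160000, the bin of Traj61 to Traj56, had 2, 6 and 1 reads in EACBE-/- and 47, 31 and 34 in EACBE+/+. Its log2 difference of -3.16 ± 0.95 missed the threshold (edgeR quasi-likelihood, Benjamini-Hochberg adjusted p = 0.065), and it was singled out after its values were seen.

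Against liver, no pair with a window bin was called by edgeR for Eα (0 of 127, with 1 at an unadjusted p under 0.05 and 0 called by DESeq2), where 1.31% of 1521 pairs were called and 0.0657% were higher in DP thymocytes. Nor was any for TEAp (0 of 241, with 8 at an unadjusted p under 0.05 and 0 called by DESeq2), where 2.39% of 2678 were called and 0.523% were higher. For INT2 7 of 104 were called, all higher in DP thymocytes, where 6.64% of all 1506 were called and 5.71% were higher. The Trav17 bin with the bait's own bin had 359, 945 and 516 reads in DP thymocytes and 17 and 5 in liver, a log2 difference of 2.78 ± 0.35 (edgeR quasi-likelihood, Benjamini-Hochberg adjusted p = 1.16e-05). The pair of chr14:53800001-53805000 with chr14:54060001-54065000 had 21, 92 and 45 reads against 0 and 0, at least 3.97-fold higher against a floor of 3 counts over the group (edgeR quasi-likelihood, Benjamini-Hochberg adjusted p = 0.0411). No pair was called without DP library 2 of this bait, and 4 were without liver library 1.

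Whether a read that reached the Trav17 window was more likely to hold a given stretch was described by the log2 ratio of that stretch's share beside a window fragment to its share in reads with none, with 0.5 reads added to each count. Of the stretches, the upstream V genes stood farthest above 0. Their stretch adjoins the window, as the proximal V stretch does on the other side. The ratio is not corrected for distance along the chromosome. The upstream V stretch chr14:53740001-53790000 gave 2.66 ± 0.57 for Eα and 2.31 ± 0.20 for TEAp in EACBE+/+, and 3.16 ± 0.34 and 3.09 ± 0.21 in EACBE-/-. The proximal V stretch, with Trav18, gave 0.35 ± 0.35 and 0.28 ± 0.05 in EACBE+/+, and 0.85 ± 0.23 and 0.55 ± 0.10 in EACBE-/-. Its share in reads without a window fragment was lower in EACBE-/-, at a mean of 16.0% against 24.4% for Eα and 21.7% against 27.4% for TEAp. The first Jα bins stood at -0.78 ± 0.10 for Eα and -0.02 ± 0.31 for TEAp, and the INTs at -0.17 ± 0.23 and -0.08 ± 0.12. For Eα the mean share of the first Jα bins was 3.06% beside a window fragment and 5.37% in reads without one. In the single library of the second Eα primer it went the other way, at 8.13% against 7.01%. For TEAp the first Jα bins include the bait's own bin. In EACBE-/- the INTs stood at -1.61 ± 1.20 for Eα, on the few reads given above. These ratios were not tested. Counting each distinct pair once left the upstream V stretch for Eα at 2.33 ± 0.40.

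**Figure D5:**
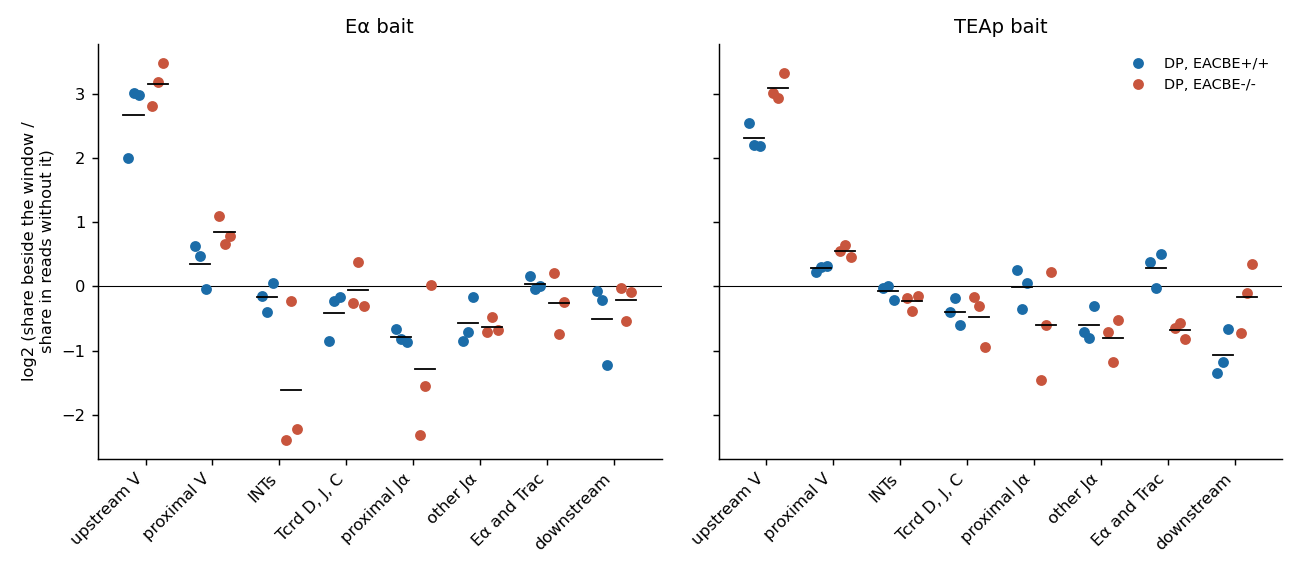
Log2 ratio of the share of each stretch beside a Trav17 window fragment to its share in reads without one, for the Eα and TEAp baits; points are libraries and lines are means (3 libraries per group), and 0 means an equal share. The upstream V stretch is between 2.0 and 3.01 in the EACBE+/+ libraries of Eα.

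Seen from the Trav17 bait, the other side of the same contacts, 4 stretches were tested and each was lower in EACBE-/- DP thymocytes. The INTs were in 7.53%, 9.04% and 8.53% of region reads in EACBE+/+ and in 6.87%, 6.90% and 6.52% in EACBE-/-. The first Jα bins were in 2.69%, 3.38% and 3.91% against 2.21%, 2.32% and 2.29%. The Tcrd stretch was in 14.9%, 16.1% and 15.2% against 12.5%, 12.6% and 11.0%, and Trac with Eα in 5.04%, 5.08% and 4.59% against 3.22%, 4.06% and 3.81%. None of these overlapped between the genotypes (exact permutation test, two-sided, p = 0.1, the smallest possible, adjusted p = 0.1). Without the bin of the Eα primers, again an alternative added after seeing the data, the last difference went from -1.21 to -0.31 percentage points and the genotypes overlapped (exact permutation test, p = 0.2). Reads with a fragment downstream of Eα were 6.24%, 5.26% and 5.38% in EACBE+/+ and 9.89%, 9.38% and 9.23% in EACBE-/-, which was not tested. The proximal V stretch, the most frequent, went the same way, at 46.3%, 42.7% and 48.7% in EACBE+/+ and 49.6%, 48.8% and 49.7% in EACBE-/-, and was not tested either. In liver, with 1247 and 675 region reads, the INTs were in 2.41% and 0.74%, and the first Jα bins in 0.72% and 0.15%.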

How the data were processed

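3C-HTGTS libraries of DP thymocytes and liver cells were processed by the authors, who trimmed reads (fastp 0.20.0 and cutadapt 1.18 in the submitters' processing notes), aligned fragments to mm10 (Bowtie2 2.4.5) and kept reads with the bait and at least 2 further MboI fragments. They deposited raw matrices of read counts per pair of 5 kb bins and, for DP libraries except INT2, lists of fragments per read. The deposited counts are not normalized, and the normalized matrices were not used. The study calls its replicates biological in places and independent experiments in others. The labels do not say that they came from separate animals, so p-values measure only the spread between these libraries.

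Counts with both fragments in chr14:53740001-54300000 were summed by window and class. The INT and Eα stretches were set from primer positions. Shares were compared by exact permutation tests, adjusted by Benjamini-Hochberg within each family. Bins and bin pairs with at least 10 counts summed were tested with edgeR 4.0.16 (R 4.3.3, quasi-likelihood), with the region total as library size. The edgeR step was also run on simulated independent counts for the genotype comparisons. That run did not cover the liver comparisons or repeated fragment pairs. Alternatives were DESeq2 1.42.0, TMM, no filter, 10 kb bins, distinct pairs, pairs within a single bin left out, chromosome 14 totals, other flanks, a replicate block and leaving out each library. Named were all 6 window bins, the 5 leading partner bins and 4 leading V genes per bait, up to 3 called pairs per comparison with the largest change, and the fragments of the bait, of Trav17 and of the 3 highest captures per bait. The members and lists were chosen with earlier results of these data known.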

Additional observations from a re-analysis of the deposited data

Results flagged for a closer look

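A single EACBE+/+ DP library made with a second Eα primer entered no comparison here, since it has no replicate, and was picked out for that reason. The study did analyse this library, and reports high similarity to its first Eα bait with a slightly lower co-occurrence signal. In it the Trav17 window stood above the 0-count limit, as in the other DP libraries. The window took 4.80% of 72123 region reads (95% Wilson interval 4.65 to 4.96%, counting error only) and was at 1.31 times the mean of its flanks. Its leading partner bin was that of Trav18, at 6.18% of window reads, and the INTs made up 9.58%.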

How the results depend on the processing

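Of 389 alternatives to 38 reported values, 343 gave the same reading. For a share or a ratio this means only that its direction was kept, also where the groups came to overlap. For calls it means an equal or similar number, so 0 calls that stayed 0 count too. The share of the window kept its direction in 50 of 51. The exception was INT2, DP thymocytes against liver, at -5.42 percentage points when only reads upstream of the INTs were the total. With 3 or fewer libraries a group, no exact test here can pass 0.05. Liver depth limits every DP against liver value for Eα and TEAp.

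The ratio to the flanks changed sign where it was close in both groups. EACBE-/- minus EACBE+/+ gave -0.21 for Eα with only the 2 central bins and 0.0859 for TEAp with flanks of 15 kb, and leaving out 1 library gave -0.13 to 0.12 for Eα and -0.0562 to 0.0193 for TEAp. DP minus liver for INT2 gave -0.0358 with 15 kb flanks. TEAp minus INT2 gave -0.0426 with 15 kb flanks and between -0.00371 and 0.0421 without 1 library. Trac and Eα as partner from Eα ranged from -2.87 to 0.65, and proximal V as partner from TEAp from -2.22 to 0.19, with 1 library left out.

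The 1 window bin called for Eα between genotypes became 0 with TMM, DESeq2, the replicate block, pairs within a single bin left out or downstream bins left out, 2 with distinct pairs, and 0 to 3 without 1 library. For TEAp the 3 became 5 with distinct pairs and 2 to 3 without 1 library. Its 2 called pairs, both higher in EACBE-/-, became 4 with DESeq2 (3 higher, 1 lower), 1 with no filter or the replicate block (higher), and 0 to 2 without 1 library. Distinct pairs gave 1 and 10 kb bins 2, all of them other pairs, lower in EACBE-/-. DP against liver, the 4 bins called for Eα became 0 with the replicate block, 2 with pairs within a single bin left out, 2 of 3 tested with 10 kb bins, and 2 to 4 without 1 library. The 4 for TEAp became 0 with the replicate block, and the 6 for INT2 became 5 with TMM, 4 with DESeq2 or the replicate block and 4 to 6 without 1 library. With 10 kb bins, where 3 were tested, all 3 were called for INT2 and for TEAp. Pairs against liver went from 0 to 1 with TMM for Eα, from 0 to 5 with TMM and 1 with 10 kb bins for TEAp, and from 7 to 2 with DESeq2, 3 with the replicate block or 10 kb bins and 0 to 6 without 1 library for INT2. The causes were not tested.

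The bin chr14:53795001-53800000 from Eα, not called at -0.10, changed sign with TMM (0.16), DESeq2 (0.19), pairs within a single bin left out (0.22), downstream bins left out (0.0031) and with 1 library left out (-0.43 to 0.0847, above 0 without EACBE-/- library 3). Replicate numbers gave no steady sign of pairing, with correlations of same-numbered deviations from -0.32 to 0.54 between genotypes. Of these 9 correlations, 2 were over 0.1, at 0.44 and 0.54 for TEAp libraries 2 and 3. So few libraries cannot exclude pairing. Chromosome 14 totals and distinct pairs could not be computed for INT2 and liver.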
